A study of Mus musculus with 18 samples.

Results

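Transcripts of 5 genes of TNF signaling were followed in mouse progenitor cells: the TNF receptors Tnfrsf1a and Tnfrsf1b and the TRAF adaptors Traf1, Traf2 and Traf5. They were chosen by annotated gene symbol and are 5 of the 9636 genes with a probe set of a single symbol, each with 1 probe set among 10335. Bone marrow came from Balb/c mice with an established myeloproliferative neoplasm driven by JAK2V617F, delivered by a retrovirus that also carries GFP as a marker. Marrow of several mice was harvested for each of 3 experiments. It was cultured for 16 h with serum, with SCF at 100 ng/mL and with IL-3 at 50 ng/mL. The cultures were left untreated or received a blocking antibody (BA) against TNFR1 or against TNFR2 at 10 μg/mL. Lin-Kit+ cells, an immature fraction without lineage markers, were then sorted into GFP+ (JAK2V617F+) and GFP- (JAK2V617F-) cells. This gave 6 groups of 3 Affymetrix arrays: untreated JAK2V617F+, untreated JAK2V617F-, TNFR1 BA JAK2V617F+, TNFR1 BA JAK2V617F-, TNFR2 BA JAK2V617F+ and TNFR2 BA JAK2V617F-. All cells had been in the same diseased marrow and in the same cytokines, so the JAK2V617F- cells were not cells of healthy mice. GFP marks cells that carry the retrovirus, and no group carried the vector without JAK2V617F.

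Tnfrsf1a encodes TNFR1, which is found on most cell types and carries a death domain. Tnfrsf1b encodes TNFR2, which has no death domain, is found mainly on blood cells and binds TRAF2 directly. TRAF2 and TRAF5 are adaptors that link these receptors to NF-kB and MAP kinase signaling, and TRAF1, itself induced by NF-kB, binds TRAF2 and modulates it. The question of the design was whether cells with and without JAK2V617F differ in their transcripts and whether blocking either receptor changes such a difference. For the receptors it is whether each BA went with a change in the transcript of its own target.

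None of the 5 transcripts passed the threshold of the fit across all probe sets in any of 12 comparisons. Both receptor transcripts were well above the lower end of the scale in every array, and their differences between genotypes were small, with 95% intervals within 1.28 log2 units of zero for the mean over treatments. Traf1 had the lowest genotype difference of the 5, at -1.92 on the log2 scale in JAK2V617F+ cells against JAK2V617F- cells. It appeared in replicates 1 and 2 and was close to zero in the pairs of used arrays of replicate 3. Traf5 had a log2 signal under 4 in 14 of 17 arrays, and the other 3 were JAK2V617F- arrays with a BA.

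The arrays gave log2 signals between 2.22 and 15.49, with no detection calls. The array of untreated JAK2V617F+ replicate 3, which the study left out for quality, had a median log2 signal of 6.05 against 7.41 to 7.75 in the other arrays, so 17 arrays were used and that group has 2. Comparisons were made with limma and Benjamini-Hochberg adjustment over all 10335 probe sets at a threshold of 0.05, without a block for the replicate number. Replicate numbers are read as the 3 experiments, which neither the labels nor the methods state, and pairs below are arrays of the same number and treatment. Myb, a progenitor transcript, was between 11.95 and 13.19 in the 17 arrays, and Kit, whose protein was used for sorting, was between 3.71 and 9.95. A signal from sorted cells does not tell fewer cells of a type from less RNA per cell. The number of arrays limits the precision throughout.

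The 5 genes lie on 4 chromosomes of the GRCm38.p6 annotation: Tnfrsf1a at chr6:125349723-125362483, Tnfrsf1b at chr4:145212368-145246870, Traf1 at chr2:34941750-34961812, Traf2 at chr2:25517982-25546940 and Traf5 at chr1:191997203-192092599. JAK2V617F activates STAT transcription factors, and TNF receptors activate NF-kB. The promoter windows of RefSeq, 300 bases around each annotated start, were therefore searched on both strands for the STAT motif TTCNNNGAA, which reads the same on both strands, and for the NF-kB consensus motif. All 5 genes had a window. The windows of both receptor genes held 1 STAT motif each, and those of the 3 TRAF genes held none. Among all 32851 windows 8.30% held it. The NF-kB motif was in none of the 5 windows and in 8.46% of all. These letters were looked for in these windows alone, and a match is a description of the sequence. The bases before the gene start are shown for both receptors, which hold the match in capitals, and for Traf1, the gene of the lowest genotype difference:
Tnfrsf1a, chr6:125349473-125349722, plus strand: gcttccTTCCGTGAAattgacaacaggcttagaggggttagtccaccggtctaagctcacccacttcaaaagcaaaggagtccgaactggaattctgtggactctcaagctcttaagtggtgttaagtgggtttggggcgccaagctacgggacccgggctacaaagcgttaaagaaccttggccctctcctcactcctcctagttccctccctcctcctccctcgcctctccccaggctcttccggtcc
Tnfrsf1b, chr4:145246871-145247120, minus strand: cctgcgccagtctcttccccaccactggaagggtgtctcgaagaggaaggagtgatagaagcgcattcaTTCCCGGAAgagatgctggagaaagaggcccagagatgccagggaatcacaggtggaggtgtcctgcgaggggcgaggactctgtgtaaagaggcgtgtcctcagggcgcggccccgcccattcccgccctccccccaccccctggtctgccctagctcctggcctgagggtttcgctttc
Traf1, chr2:34961813-34962022, minus strand: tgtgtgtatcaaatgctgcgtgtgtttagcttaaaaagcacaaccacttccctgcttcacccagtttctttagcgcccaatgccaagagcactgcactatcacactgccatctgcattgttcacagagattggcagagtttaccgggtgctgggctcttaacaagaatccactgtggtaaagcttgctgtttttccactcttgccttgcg

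The match in Tnfrsf1a, TTCCGTGAA, began 244 bases before the start, and that in Tnfrsf1b, TTCCCGGAA, began 181 bases before it. The window of Traf1 also had the lowest content of G and C of the 5, at 48.7% with 4 CpG dinucleotides. The other 4 windows had 57.0% to 64.0% with 11 to 28 CpG dinucleotides, and the median of all windows was 52.7%.

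Tnfrsf1a, the receptor with the death domain, had log2 signals of 8.41 and 10.73 in untreated JAK2V617F+ cells and of 9.63, 9.08 and 9.35 in untreated JAK2V617F- cells. With TNFR1 BA it had 11.11, 9.70 and 10.23 in JAK2V617F+ cells and 8.66, 10.98 and 10.56 in JAK2V617F- cells. With TNFR2 BA it had 8.81, 9.64 and 10.01 in JAK2V617F+ cells and 9.35, 8.04 and 9.94 in JAK2V617F- cells. The genotypes overlapped under each treatment. Over the 3 treatments the log2 difference between JAK2V617F+ and JAK2V617F- cells was 0.29 (SE 0.47, limma adjusted p = 0.870), with a 95% interval from -0.69 to 1.28. Of the 8 pairs of arrays, 4 were higher and 4 lower in JAK2V617F+ cells. The sign of this mean turned without untreated JAK2V617F+ replicate 2 (-0.10) and without replicate 2 of all groups (-0.08).

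Tnfrsf1b, the receptor without a death domain, had log2 signals of 11.25 and 10.90 in untreated JAK2V617F+ cells and of 11.50, 9.43 and 11.86 in untreated JAK2V617F- cells. With TNFR1 BA it had 9.53, 12.62 and 11.41 in JAK2V617F+ cells and 11.26, 10.59 and 12.17 in JAK2V617F- cells. With TNFR2 BA it had 11.73, 10.94 and 11.82 in JAK2V617F+ cells and 11.80, 12.02 and 11.40 in JAK2V617F- cells. The genotypes overlapped here too under each treatment. The genotype difference over treatments was -0.08 (SE 0.42, limma adjusted p = 0.964), with a 95% interval from -0.97 to 0.80. It was lower in JAK2V617F+ cells in 5 of 8 pairs, and its sign turned in 9 of the 28 alternative fits, as with all 18 arrays (0.17).

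**Figure D1:**
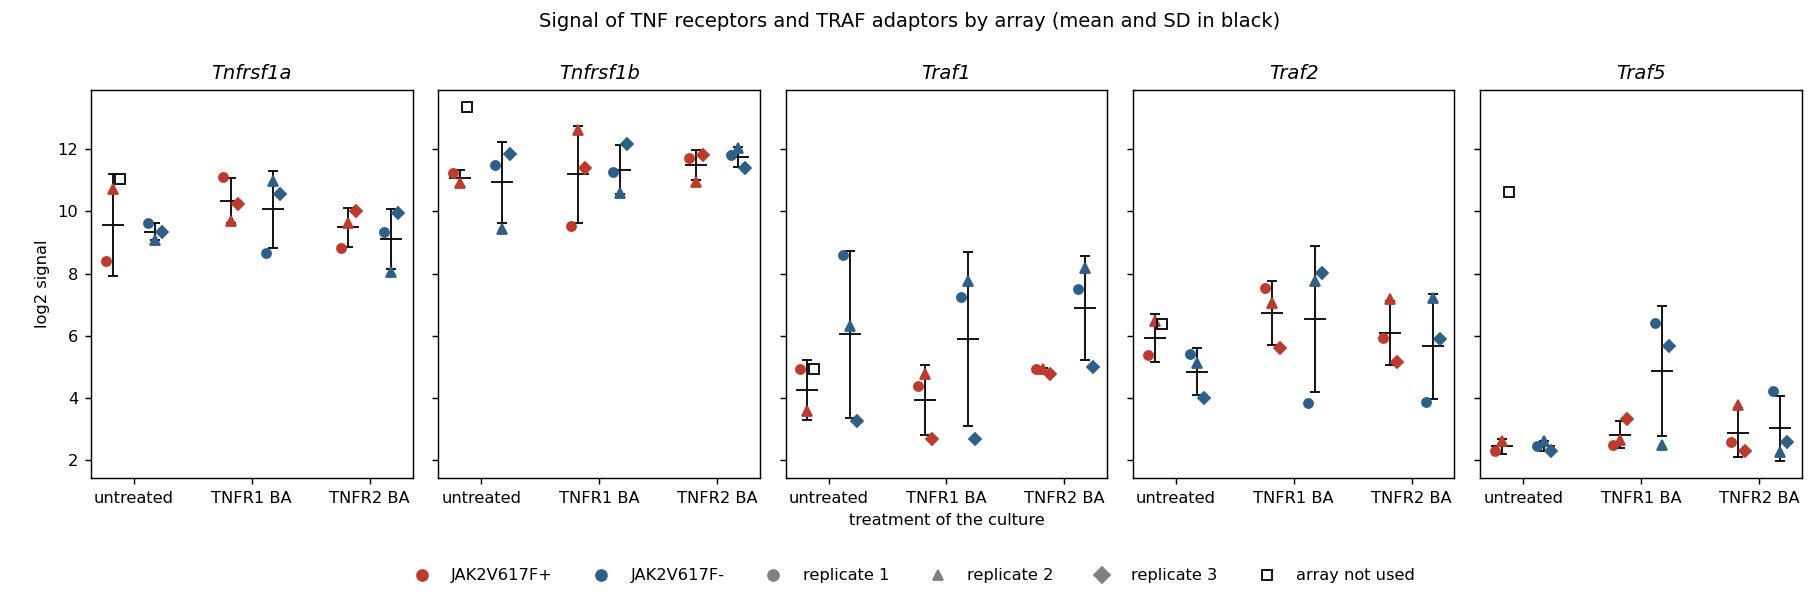
Log2 signal (y axis) of each gene on every array by treatment (x axis), with JAK2V617F+ in red, JAK2V617F- in blue, a marker shape per replicate number, the group mean and SD of the used arrays in black and the array that was left out as an open square. Both receptors overlap between genotypes under each treatment, Traf1 is higher in several JAK2V617F- arrays, and Traf5 is near the bottom of the scale except in a few arrays.

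For the receptor that each BA targets, the transcript did not pass the threshold in either genotype. Tnfrsf1a with TNFR1 BA minus untreated was 0.78 on the log2 scale in JAK2V617F+ cells (SE 0.87, limma adjusted p = 0.934, 95% interval -1.06 to 2.61) and 0.71 in JAK2V617F- cells (SE 0.78, limma adjusted p = 1, interval -0.93 to 2.35). In JAK2V617F+ cells this difference was -0.38 without untreated JAK2V617F+ replicate 1 and -0.77 without replicate 1 of all groups. In JAK2V617F- cells it ran from 0.12 without replicate 2 of all groups to 1.55 without replicate 1. Tnfrsf1b with TNFR2 BA minus untreated was 0.42 in JAK2V617F+ cells (SE 0.78, limma adjusted p = 0.998, interval -1.22 to 2.07) and 0.81 in JAK2V617F- cells (SE 0.70, limma adjusted p = 1, interval -0.66 to 2.28). The first of these was -0.34 with all 18 arrays, and the second was -0.08 without replicate 2. The widths of these intervals leave changes of more than 1 log2 unit in either receptor inside them. The receptor that was not targeted moved by -0.09 and -0.24 (Tnfrsf1a with TNFR2 BA in JAK2V617F+ and JAK2V617F- cells) and by 0.11 and 0.41 (Tnfrsf1b with TNFR1 BA), each with an adjusted p of 1 by limma. The difference of the BA response between genotypes was at most 0.39 log2 units in size for the receptors, and none of these passed the threshold. The BA comparisons of a genotype share their untreated arrays.

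Traf1, the adaptor that NF-kB induces, had log2 signals of 4.93 and 3.57 in untreated JAK2V617F+ cells and of 8.58, 6.31 and 3.26 in untreated JAK2V617F- cells. With TNFR1 BA it had 4.38, 4.78 and 2.67 in JAK2V617F+ cells and 7.23, 7.76 and 2.67 in JAK2V617F- cells. With TNFR2 BA it had 4.93, 4.93 and 4.79 in JAK2V617F+ cells and 7.50, 8.19 and 4.99 in JAK2V617F- cells. Replicates 1 and 2 of JAK2V617F- cells were thus higher than every JAK2V617F+ array, and replicate 3 of JAK2V617F- cells lay between 2.67 and 4.99. The groups did not overlap with TNFR2 BA alone, and 10.1% of all probe sets did not overlap between the genotypes there. No JAK2V617F+ array exceeded 4.93, and the JAK2V617F- arrays ran from 2.67 over a median of 7.23 to 8.58.

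The log2 difference of Traf1 between JAK2V617F+ and JAK2V617F- cells was -1.80 without BA, -1.94 under TNFR1 BA and -2.01 under TNFR2 BA. With arrays left out these ran from -3.19 (without untreated JAK2V617F- replicate 3) to -0.53 (without untreated JAK2V617F- replicate 1), from -3.55 to -1.01 (without TNFR1 BA JAK2V617F- replicates 3 and 2) and from -2.96 to -1.36 (without TNFR2 BA JAK2V617F- replicates 3 and 2). Over the 3 treatments it was -1.92 (SE 0.92, limma unadjusted p = 0.0522, adjusted p = 0.488), with a 95% interval from -3.85 to 0.02. In an exact two-sided permutation test of the 8 JAK2V617F+ against the 9 JAK2V617F- arrays, with 24310 assignments, the difference of means was -1.90 (p = 0.0362, not adjusted for the 5 genes tested). That test treats all arrays as independent. Its p was 0.0589 to 0.0680 when any of 7 arrays was left out, which were TNFR1 BA JAK2V617F- replicates 1 and 2, TNFR2 BA JAK2V617F- replicates 1 and 2, untreated JAK2V617F- replicate 1, TNFR1 BA JAK2V617F+ replicate 3 and untreated JAK2V617F+ replicate 2.

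The replicate numbers differed for Traf1. Within number and treatment, the differences were -3.65, -2.86 and -2.57 in replicate 1 (untreated, TNFR1 BA and TNFR2 BA), with a mean of -3.03. In replicate 2 they were -2.73, -2.98 and -3.25, with a mean of -2.99. In replicate 3 they were 0.001 with TNFR1 BA and -0.20 with TNFR2 BA, with a mean of -0.10. The untreated pair of replicate 3, which holds the array that was left out, was 1.68. Of the pairs of used arrays, 7 of 8 were lower in JAK2V617F+ cells, and 10.9% of all probe sets had at least 7 of 8 pairs of one sign. Without replicate 3 the limma difference was -3.01 (unadjusted p = 0.00356, adjusted p = 0.217). It was -1.47 without replicate 1 and -1.27 without replicate 2, where the exact p was 0.255 and 0.232. The replicate number accounted for 36.4% of the variance of Traf1 over arrays, against a median of 12.9% over all probe sets, and the genotype accounted for 26.7%, against a median of 4.62%.

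**Figure D2:**
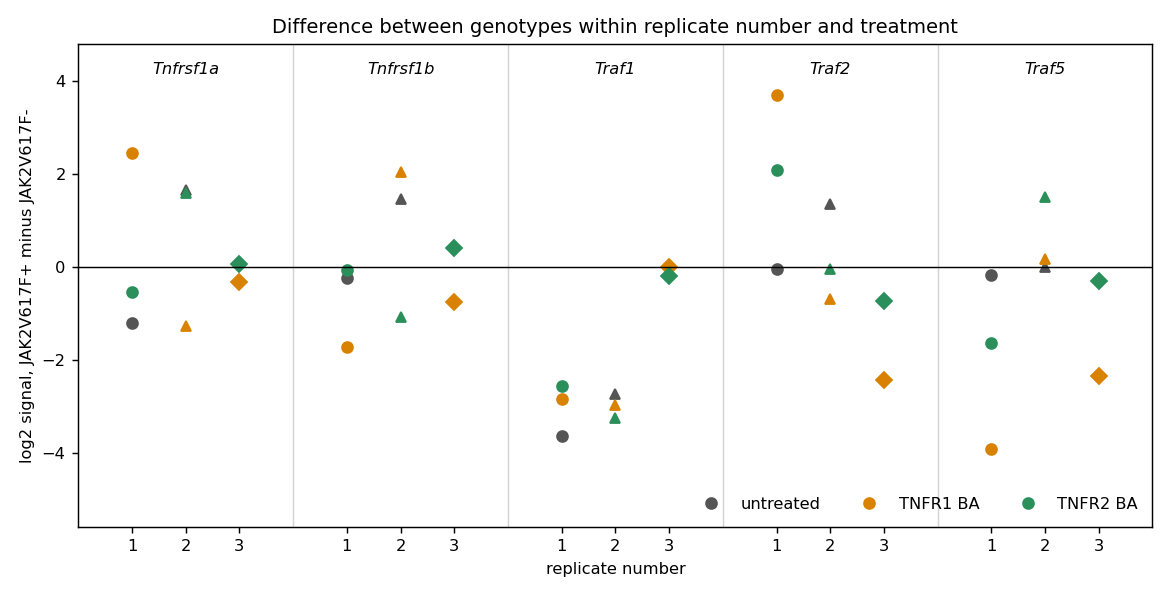
Difference in log2 signal between JAK2V617F+ and JAK2V617F- cells (y axis) within each replicate number (x axis) and treatment (colour) for the 5 genes, over the 8 pairs of used arrays. The 6 Traf1 pairs of replicates 1 and 2 lie between -3.65 and -2.57 and those of replicate 3 near zero, while the pairs of the other genes are spread on both sides of zero.

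Several Traf1 signals were identical to all digits. The log2 value 4.93 was shared by 4 JAK2V617F+ arrays, namely TNFR2 BA replicates 1 and 2, untreated replicate 1 and the untreated replicate 3 that was left out. Such repeats were common in the table, where 45.0% of probe sets had a value shared by 2 or more of 18 arrays and 17.99% had one shared by 4 or more. The narrow spread of Traf1 with TNFR2 BA in JAK2V617F+ cells (SD 0.08) rests on these repeats. Marker transcripts also moved with the genotype. Averaged over 8 markers of mast cells and basophils, the log2 signal was 11.3 to 12.5 in JAK2V617F+ arrays and 6.52 to 8.75 in JAK2V617F- arrays, higher in JAK2V617F+ cells for 8 of 8 genes with 5 past the threshold. Averaged over 5 erythroid markers it was 9.24 to 12.004 against 6.69 to 10.01, with 2 past the threshold. Averaged over 4 B cell markers it was 2.22 to 4.29 against 2.25 to 6.10, and over 2 T and NK cell markers it was 5.60 to 6.79 against 6.45 to 8.52, with all 6 lower in JAK2V617F+ cells and none past the threshold. Of megakaryocyte markers 5 of 5 were higher (5.28 to 8.12 against 4.65 to 5.43), of markers of monocytes, macrophages and dendritic cells 3 of 6 (4.47 to 7.22 against 3.83 to 7.80) and of neutrophil markers 1 of 5 (11.3 to 13.99 against 12.3 to 14.1), with none past the threshold. Their part in the Traf1 difference was not tested.

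Traf2, which joins both receptors to ubiquitin ligases, had log2 signals of 5.37 and 6.48 in untreated JAK2V617F+ cells and of 5.42, 5.12 and 3.996 in untreated JAK2V617F- cells. With TNFR1 BA it had 7.55, 7.07 and 5.60 in JAK2V617F+ cells and 3.84, 7.76 and 8.03 in JAK2V617F- cells. With TNFR2 BA it had 5.95, 7.18 and 5.14 in JAK2V617F+ cells and 3.87, 7.23 and 5.88 in JAK2V617F- cells. The genotypes overlapped under each treatment, and the JAK2V617F- arrays were more widely spread, with a signal under log2 4 in 3 of 9 of them and in 0 of 8 JAK2V617F+ arrays. The genotype difference over treatments was 0.57 (SE 0.79, limma adjusted p = 0.847, 95% interval -1.10 to 2.24), and 3 of 8 pairs were higher in JAK2V617F+ cells. Its mean over pairs was 1.91 in replicate 1, 0.21 in replicate 2 and -1.58 in replicate 3, and without replicate 1 the difference was -0.01. The highest BA difference of Traf2 was with TNFR1 BA in JAK2V617F- cells, at 1.70 (SE 1.32, limma adjusted p = 1), and it ran from 0.53 without replicate 3 of all groups to 3.34 without replicate 1.

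Traf5, an adaptor related to TRAF2, had log2 signals of 2.29 and 2.62 in untreated JAK2V617F+ cells and of 2.47, 2.62 and 2.28 in untreated JAK2V617F- cells. With TNFR1 BA it had 2.49, 2.66 and 3.32 in JAK2V617F+ cells and 6.42, 2.49 and 5.67 in JAK2V617F- cells. With TNFR2 BA it had 2.59, 3.79 and 2.29 in JAK2V617F+ cells and 4.23, 2.28 and 2.59 in JAK2V617F- cells. The signal was under log2 4 in 8 of 8 JAK2V617F+ arrays and in 6 of 9 JAK2V617F- arrays, close to the lowest value of the table, where differences may be understated. The highest 2 of the used arrays were replicates 1 and 3 of TNFR1 BA JAK2V617F- cells.

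Traf5 gave the only unadjusted p-values under 0.05 among the 60 tests of the 5 genes in 12 comparisons, and neither held under several other settings. The difference between JAK2V617F+ and JAK2V617F- cells with TNFR1 BA was -2.04 (SE 0.95, limma unadjusted p = 0.0468, adjusted p = 0.792), and it ranged from -3.23 without TNFR1 BA JAK2V617F- replicate 2 to -1.09 without replicate 1 of all groups (unadjusted p from 0.00192 to 0.358). The unadjusted p was 0.0534 with a replicate block and 0.219 with all 18 arrays. TNFR1 BA minus untreated in JAK2V617F- cells was 2.40 (SE 0.95, limma unadjusted p = 0.0218, adjusted p = 1). It ranged from 1.62 without TNFR1 BA JAK2V617F- replicate 1 to 3.67 without replicate 2 of all groups (unadjusted p from 0.000796 to 0.181), and its unadjusted p was 0.151 with all 18 arrays. Both values share the 3 arrays of TNFR1 BA JAK2V617F- cells. Across the treatments the genotype difference of Traf5 was -0.73 (SE 0.57, limma adjusted p = 0.694, 95% interval -1.93 to 0.48), and with all 18 arrays it was 0.18. In the array that was left out, Traf5 had a log2 signal of 10.63, above all 17 others, of which the highest was 6.42.

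**Figure D3:**
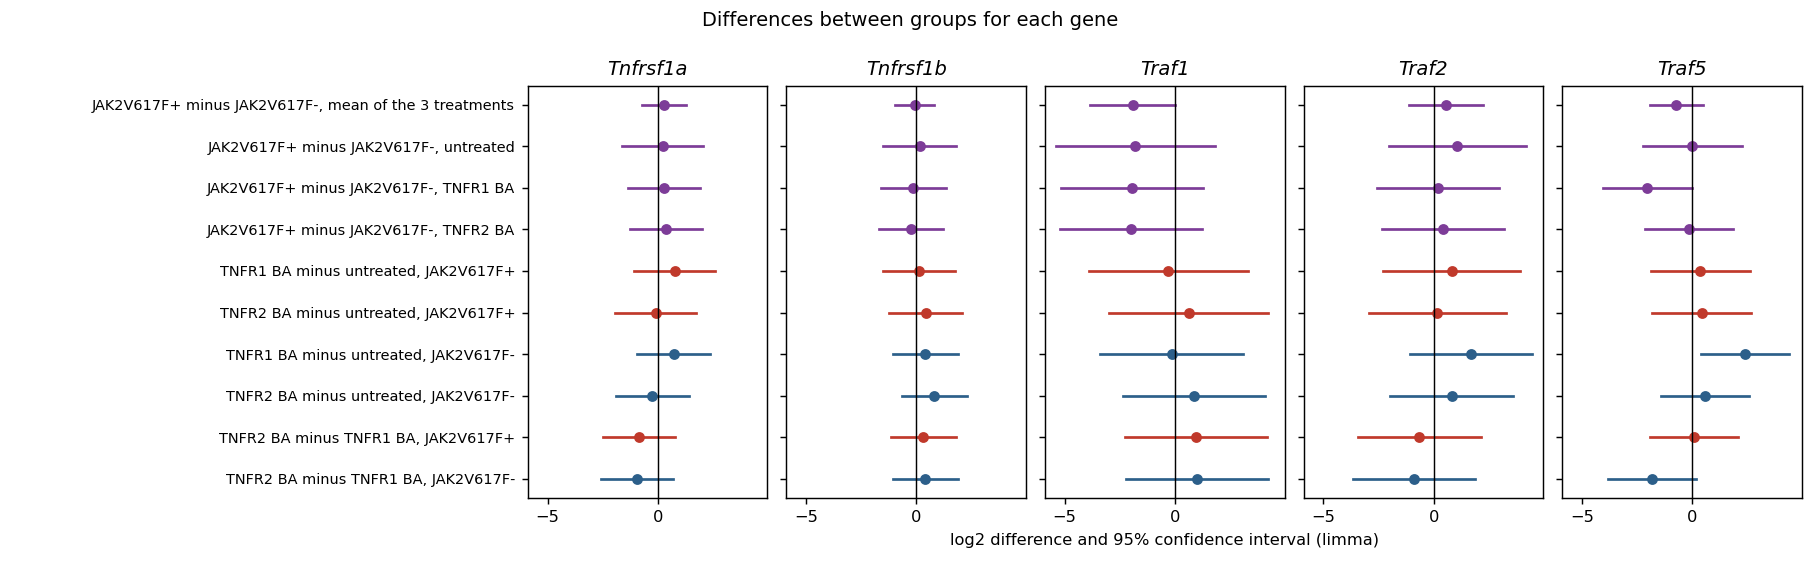
Log2 difference (x axis) with its 95% confidence interval from limma for each gene in 10 comparisons (y axis), with comparisons of genotypes in purple, BA comparisons in JAK2V617F+ cells in red and those in JAK2V617F- cells in blue. Intervals include zero everywhere except for 2 comparisons of Traf5 with TNFR1 BA, and they are narrower for the receptors than for Traf1 and Traf2.

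The counts of the 5 genes are read against those of all probe sets. Past the adjusted threshold by limma were 0 of 5 genes in each comparison, where the share of all probe sets was 0.358% for the genotypes over all treatments, 0.0774% without BA, 0.0871% under TNFR1 BA and 0.0387% under TNFR2 BA. It was 0.00968% for TNFR1 BA and 0.0290% for TNFR2 BA against untreated JAK2V617F+ cells. It was 0% for each BA against untreated JAK2V617F- cells, for TNFR2 BA against TNFR1 BA in each genotype, and for the difference of each BA response between genotypes. With so few calls among all probe sets, a count of 0 among 5 genes is near the background.

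At an unadjusted limma p under 0.05, 0 of 5 genes passed for the genotypes over all treatments, in untreated cultures and under TNFR2 BA, against 10.3%, 7.32% and 5.63% of all probe sets. With TNFR1 BA 1 gene passed, against 6.21%. For BA against untreated cells, 0 of 5 passed with TNFR1 BA and TNFR2 BA in JAK2V617F+ cells, against 6.78% and 5.26%. In JAK2V617F- cells 1 of 5 passed with TNFR1 BA and 0 with TNFR2 BA, against 3.73% and 2.47%. None passed for TNFR2 BA against TNFR1 BA in JAK2V617F+ and JAK2V617F- cells, against 4.37% and 3.70%, or for the difference of the TNFR1 BA and TNFR2 BA responses between genotypes, against 5.22% and 3.83%. No gene had genotypes that did not overlap over all 17 arrays, which 0.242% of all probe sets did.

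The spread between arrays of 1 group differed among the 5 genes. The SD within groups was 0.93 for Tnfrsf1a and 0.97 for Tnfrsf1b on the log2 scale, at the 24.1 and 25.6 percentiles of all probe sets. It was 1.88 for Traf1, at the 71.5 percentile, 1.43 for Traf2, at the 49.2 percentile, and 1.07 for Traf5, at the 31.0 percentile. The median of all probe sets was 1.45. The receptors were thus measured with less spread than most probe sets, and Traf1 with more.

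Other genes of the pathway were read from 8 lists by role, of which 62 of 81 genes were measured. For the genotypes over all treatments 0 were higher and 1 was lower past the threshold in JAK2V617F+ cells, by limma, and 4 were higher and 4 lower at an unadjusted p under 0.05. Of all probe sets, 0.358% passed the adjusted threshold and 10.3% the unadjusted one, so these counts are near the background. The median log2 difference of the 62 was 0.16, against 0.00 over all probe sets. The gene past the threshold was Xiap, an inhibitor of caspases, at -4.19 (SE 0.71, limma adjusted p = 0.00774), and from -5.13 to -3.45 with replicates left out. This call was lost when replicate 1, 2 or 3 of all groups was left out (adjusted p up to 0.266), by the methods' paired test (0.547) and by the unpaired one (0.394). The highest by moderated t was Adam17, which sheds TNF and its receptors from the cell surface, at 2.32 (SE 0.72, limma adjusted p = 0.253). Of the 9 other TRAF genes and TRAF-binding proteins, 0 passed at either threshold in this comparison, with a median of 0.18. Of 10 genes of complex I, the receptor-bound complex that TRAF2 joins, 0 passed the adjusted threshold and 1 was higher and 1 lower without adjustment, with a median of 0.30. Of the 10 other receptors of the superfamily that bind TRAFs, 0 passed the adjusted threshold and 1 was higher without adjustment, with a median of 0.16.

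**Figure D4:**
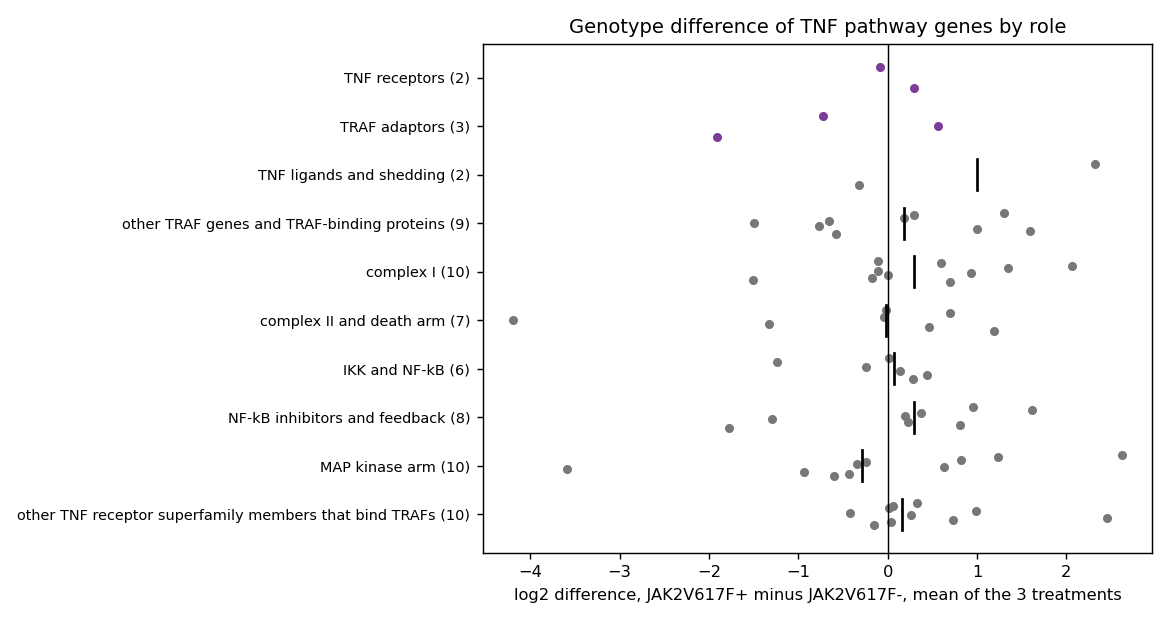
Log2 difference between JAK2V617F+ and JAK2V617F- cells over the 3 treatments (x axis) for the 5 genes in purple and for 62 genes of 8 pathway lists in grey (y axis, number of measured genes in brackets), with the median of each list as a black line. Traf1 lies at -1.92, below every other TRAF gene and TRAF-binding protein, and the gene at -4.19 in complex II is Xiap.

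In untreated cells, Xiap was the 1 gene of the 62 past the threshold, at -7.82 in JAK2V617F+ against JAK2V617F- cells (SE 1.32, limma adjusted p = 0.0188). This call was lost in 6 of 8 fits that left out replicates, those without untreated JAK2V617F- replicate 1 or 3, without untreated JAK2V617F+ replicate 2 and without replicate 1, 2 or 3 of all groups, with an adjusted p of up to 0.280. It was also lost with all 18 arrays (0.123), with array weights (0.0540), when the compared groups alone were fitted (0.650), by the paired test (0.887) and by the unpaired one (0.419). With TNFR2 BA in JAK2V617F+ cells it was again the 1 gene, at 8.37 (SE 1.32, limma adjusted p = 0.0291). That call was lost without TNFR2 BA JAK2V617F+ replicate 2 or 3, without untreated JAK2V617F+ replicate 2 and without replicate 1, 2 or 3 of all groups, with an adjusted p of up to 0.406. It was also lost with all 18 arrays (0.238), with variances without a trend (0.0584), with array weights (0.182), when the compared groups alone were fitted (0.985), by the paired test (1) and by the unpaired one (0.473). With replicates left out, the difference of Xiap ran from -8.50 to -7.16 in the first of these comparisons and from 7.76 to 8.95 in the second. Neither changed sign in these fits. The untreated JAK2V617F+ arrays behind these values are 2, with Xiap at log2 2.53 and 2.31, close to the lowest value of the table. In the untreated JAK2V617F+ array that was left out it was 6.57. With 2 untreated JAK2V617F+ arrays used, the paired test had 2 pairs in each of these comparisons. It, the unpaired test and the fit of the compared groups alone had little power over 10335 probe sets. A call lost in those settings therefore does not decide whether Xiap differed.

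Other pathway genes at the ends of the BA comparisons, ranked by moderated t and not by the size of the difference, did not pass the threshold. With TNFR1 BA in JAK2V617F+ cells the lowest and highest t were those of Traf6, a TRAF of the interleukin-1 and Toll-like receptor pathways, at -4.07 (limma adjusted p = 0.743) and Sharpin, a part of the linear ubiquitin ligase, at 1.19 (adjusted p = 0.453). With TNFR2 BA in JAK2V617F+ cells the lowest t was that of Traf3ip1 at -3.11 (limma adjusted p = 0.854). In JAK2V617F- cells they were those of Diablo, which binds inhibitors of apoptosis, at -1.86 and Adam17 at 2.84 with TNFR1 BA, and Tnfrsf13c, the BAFF receptor, at -4.76 and Ripk3, a kinase of necroptosis, at 2.16 with TNFR2 BA, each with a limma adjusted p of 1.

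The probe sets whose signals ran most like each gene over the 17 arrays are given as a description, since arrays of 1 genotype, and those cultured in the same experiment, share their source. For Traf1 they were Ifi27l2a (Pearson r = 0.859), Ramp3 (0.842) and Timd4 (0.827). For Tnfrsf1a they were Nat2 (0.726), Tmem218 (0.716) and Kctd9 (0.714), and for Tnfrsf1b they were Cenpj (0.820), BC052040 (0.793) and Ptpn9 (0.781). For Traf2 they were Frrs1 (0.831), Uap1 (0.703) and D230025D16Rik (0.688), and for Traf5 they were Pdcd1lg2 (0.800), Mmp8 (0.770) and Gm16794 (0.765). Among these 15 probe sets, only Cenpj and Frrs1 were again in the top 3 of their gene when deviations from the group means were used, with r = 0.861 and r = 0.916.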

How the data were processed

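The deposited table holds a log2 signal for each probe set and array. Per the labels and the paper it was made in Affymetrix Expression Console. Its normalization was not given in the sources used here, and no further scaling was done. Gene symbols came from the platform annotation and were checked by Entrez ID against RefSeq (GRCm38.p6), which also gave coordinates and promoter windows. The arrays themselves carry no build. Limma 3.58.1 in R 4.3.3 was fitted to the means of 6 groups over 17 arrays, with a mean-variance trend in the moderation and p-values adjusted by Benjamini-Hochberg over all probe sets. It was tested on simulated data with independent noise, which had neither a replicate effect nor the repeated values of the real table. The paper describes 3 experiments of 6 groups each. That arrays with the same replicate number belong to the same experiment is a reading, which neither the labels nor the paper state.

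The members and lists were chosen with earlier results of these data known. Named pathway genes were those past the threshold in any comparison, and the highest and lowest by moderated t in the comparison over treatments and in the 4 comparisons of BA with untreated cells. Likeness named the top 3 by Pearson's r. A listed gene with several probe sets was read from that of highest mean. Alternatives were all 18 arrays, a replicate block, quantile normalization, leaving out dim probe sets (25th percentile), variances without a trend, array weights, compared groups only, the methods' paired test and an unpaired one, other dim thresholds and leave-one-out.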

Additional observations from a re-analysis of the deposited data

Results flagged for a closer look

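Among the comparisons, only the alternatives with all 18 arrays used the array of untreated JAK2V617F+ replicate 3. That array gave signals above all 3 arrays of untreated JAK2V617F- cells for 4 of the 5 genes. The log2 signal was 11.03 for Tnfrsf1a, 13.34 for Tnfrsf1b, 6.37 for Traf2 and 10.63 for Traf5, where the highest untreated JAK2V617F- array had 9.63, 11.86, 5.42 and 2.62. Tnfrsf1b and Traf5 were also above all 17 arrays used. In that array 26.4% of all probe sets exceeded every untreated JAK2V617F- array and 11.7% exceeded all 17 arrays, and 36.5% were under log2 4. The share of these features in the 4 signals was not tested.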

How the results depend on the processing

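No gene of the 5 passed the threshold in any of 231 alternative fits over the 12 comparisons, leave-one-out included, and the lowest adjusted p of any was 0.217. Deviations from group means were correlated between arrays of different groups. Within replicates 1, 2 and 3 the average correlations were 0.01, 0.07 and 0.14, with a lowest pair of -0.197, against -0.03 between numbers. For 13 of 17 arrays, the array of another group with the highest correlation had the same number. This does not settle whether the numbers pair the arrays. With the replicate block, 0 of 5 genes passed in each comparison, and 1 gene (Traf1) had an unadjusted p under 0.05 for the genotypes over treatments, at -2.23 (unadjusted p = 0.00788, adjusted p = 0.246). The block ended 1 call named above, that of Xiap with TNFR2 BA (adjusted p = 0.0612), took the unadjusted p of Traf5 between genotypes with TNFR1 BA from 0.0468 to 0.0534, and 1 of the 62 pathway genes passed between genotypes with TNFR1 BA where 0 had. Over all probe sets it moved the calls between genotypes over treatments from 37 to 67, and the methods' paired test gave 11. By the methods' paired test 0 of 5 genes passed after Benjamini-Hochberg adjustment and, at its threshold without adjustment, 1 did, Traf1 over treatments (-2.28). Over treatments that test takes the 8 pairs as independent, although they come from 3 replicate numbers. Over the alternative fits of the reported differences of the 5 genes, 297 values kept their sign and their side of the threshold. In 17 the sign turned, none past the threshold. With all 18 arrays the turned values were 0.17 for Tnfrsf1b and 0.18 for Traf5 between genotypes, with exact p-values of 0.723 and 0.882, and -0.34 for Tnfrsf1b with TNFR2 BA in JAK2V617F+ cells. By the paired test Tnfrsf1b was 0.0027 between genotypes. With replicates left out, the genotype difference over treatments ranged from -0.10 to 0.68 for Tnfrsf1a, -0.50 to 0.19 for Tnfrsf1b, -3.01 to -1.27 for Traf1, -0.012 to 1.06 for Traf2 and -1.40 to -0.11 for Traf5. Tnfrsf1a with TNFR1 BA in JAK2V617F+ cells ranged from -0.77 to 2.26, and Tnfrsf1b with TNFR2 BA in JAK2V617F- cells from -0.075 to 1.45. In the exact permutation tests, leave-one-out differences, added after seeing the data, ranged from -0.52 to 0.29 for Tnfrsf1b, -3.01 to -1.37 for Traf1 (p from 0.00216 to 0.255) and -0.042 to 1.06 for Traf2. The causes were not tested. With a dim threshold of 5 in place of 4, Traf1 was under it in 8 of 8 JAK2V617F+ and 3 of 9 JAK2V617F- arrays, and with 4 in 2 of 8 and 2 of 9. Pathway genes past the threshold for the genotypes over treatments were 0 to 3 over the alternatives, which were run for these lists after seeing the data. With 2 or 3 arrays a group and no detection calls, low signals such as those of Traf5 limit what can be seen.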
